A study of Mus musculus with 12 samples.

Results

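Lipin 1 and the enzymes that build triglyceride from glycerol-3-phosphate or take it apart again were examined in fast-twitch muscle of mice without AMPK gamma3. The set comprised 7 genes chosen by name, Lpin1, Gpam, Agpat2, Dgat1, Dgat2, Pnpla2 and Mgll, and its members were the probe sets that the platform annotation assigns to 1 of these genes alone. Of the 7 genes, 6 were read, by 13 of 22626 tested probe sets (2 each for Lpin1, Gpam, Dgat2 and Pnpla2, 1 for Dgat1 and 4 for Mgll). Agpat2 was not analysed here.

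The samples were 6 arrays from male AMPK gamma3 knock-out mice and 6 from male wild type littermates. All were C57BL/6 mice of generation F7, 14 weeks old, and had gone without food overnight. AMPK gamma3, encoded by Prkag3, is a regulatory subunit of AMP-activated protein kinase, an energy-sensing enzyme, and is found mainly in fast glycolytic muscle. Total RNA of the white part of the right gastrocnemius, a calf muscle, was read on Affymetrix MOE430A arrays, and the array records note the knockout mice as homozygous. How the deletion was made, and whether the gene is missing in muscle alone, is not given in the sources used here.

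The values are intensities that the authors computed with RMA, a method that equalises the distribution across arrays, so a shift shared by most transcripts cannot be seen. The median intensity of an array was 132.5 at the lowest and 139.8 at the highest, and 6 arrays per genotype limit the precision. The genotype note in the array record matched the label on 12 of 12 arrays, while Prkag3 itself was not analysed here. Arrays were grouped into runs by the fluidics times in the records, a gap of more than 60 minutes starting a new run. This gave 3 runs, and every run held 2 arrays of either genotype. The arrays were scanned on 2 days. All 10 fast fibre markers were bright, between 3580 and 21088 intensity units over the arrays. In whole muscle, fewer cells of a type and less RNA per cell cannot be told apart.

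Triglyceride is made by adding fatty acids to glycerol-3-phosphate one after another. GPAM attaches the first and AGPAT2 the next, which gives phosphatidate. Lipins remove the phosphate to leave diacylglycerol, and DGAT1 or DGAT2 adds the last fatty acid. Lipolysis runs the other way, with PNPLA2, also called ATGL, cutting triglyceride, hormone-sensitive lipase cutting diacylglycerol and MGLL cutting monoacylglycerol. Fasting muscle takes up fatty acids, stores part of them in lipid droplets and burns them in mitochondria. Lipin 1 is the main lipin of skeletal muscle, and besides its enzyme activity it can enter the nucleus and assist PGC-1alpha and PPARalpha at genes of fatty acid oxidation.

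No member probe set passed the threshold, an adjusted p of 0.05 in limma over all 22626 probe sets. Across the array 0.0133% of probe sets passed it. The difference with the smallest p among the members was that of Lpin1, which was lower in knockout muscle at both of its probe sets. Gpam, Dgat1, Dgat2, Pnpla2 and Mgll differed by at most 0.11 on the log2 scale in either direction. Of the 13 probe sets 7 were lower and 6 higher in knockout, with a median difference of -0.0026, against a median of -0.0047 over all tested probe sets. The median size of a difference, regardless of direction, was 0.045 over the members and 0.044 over the array. At an unadjusted p under 0.05 there were 2 members, both Lpin1 and both lower in knockout. Over the array 6.04% of probe sets reached that level, and 2.69% were lower and 3.35% higher.

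**Figure D1:**
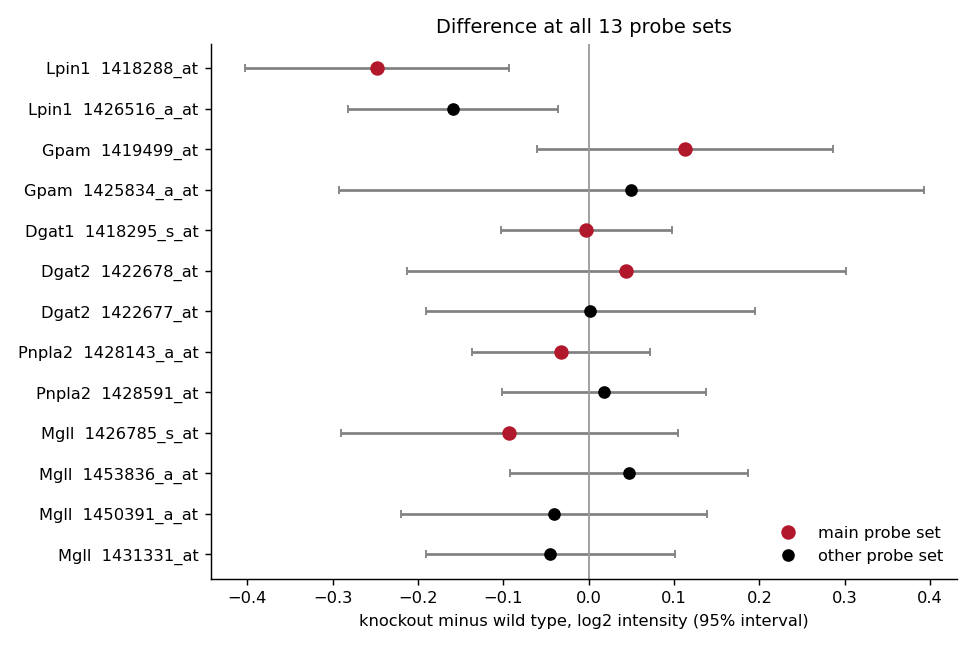
Knockout minus wild type on the log2 scale (horizontal axis) for the 13 member probe sets, with limma's 95% intervals over 6 against 6 arrays; red points are the main probe set of each gene. The intervals of both Lpin1 probe sets lie below 0, and those of the other 11 include 0.

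Lpin1 was read brightly. Its main probe set (1418288_at, the one with the higher mean) gave 3385, 3105, 3318, 2797, 3036 and 3446 intensity units in knockout arrays 1 to 6, against 3453, 4164, 3321, 3454, 4340 and 3994 in wild type arrays 1 to 6. The genotypes overlapped narrowly. Of the knockout arrays 4 lay below the lowest wild type array, and of the wild type arrays 5 lay above the highest knockout array. Wild type arrays 2, 5 and 6 were the high ones, and wild type arrays 1, 3 and 4 lay close to the highest knockout arrays.

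On the log2 scale the main Lpin1 probe set averaged 11.63 ± 0.114 in knockout and 11.88 ± 0.164 in wild type (SD, n = 6 each). The difference was -0.25 ± 0.0734 (SE), with a 95% interval from -0.40 to -0.093, which is -15.8% with an interval from -24.3% to -6.23%. It did not pass in the fit across all probe sets (limma, adjusted p = 0.707; unadjusted p = 0.00361, rank 109 of 22626). An exact permutation test on this probe set alone gave a two-sided p = 0.0108, where 0.0022 is the smallest that 6 against 6 arrays allow. Such tests of single probe sets are not adjusted for their number, and the genes were chosen with earlier results of these data known.

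The second Lpin1 probe set (1426516_a_at) gave 2191, 2083, 1937, 2129, 1971 and 2108 units in knockout arrays 1 to 6, against 2131, 2503, 2169, 2112, 2523 and 2453 in wild type arrays 1 to 6. Wild type arrays 2, 5 and 6 were again the high ones, and the other 3 lay within the upper part of the knockout range. Its difference was -0.16 ± 0.0584 (SE), with a 95% interval from -0.28 to -0.035 (limma, adjusted p = 0.781). The exact permutation test gave p = 0.026 for it.

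Both probe sets are assigned to the same gene and were read in the same RNA, so they are not separate evidence on the genotype. Over the 12 arrays, after the mean of each genotype was subtracted, they moved together with r = 0.703 (permutation p = 0.0430) and rho = 0.678 (permutation p = 0.0488). Adjusted over the 7 pairs of probe sets of 1 gene these permutation p-values became 0.1 and 0.114. Without the 2 arrays farthest from the median r was 0.856, and after removing the mean of each genotype within each fluidics run r was 0.488 (permutation p = 0.565, adjusted p = 0.728).

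**Figure D2:**
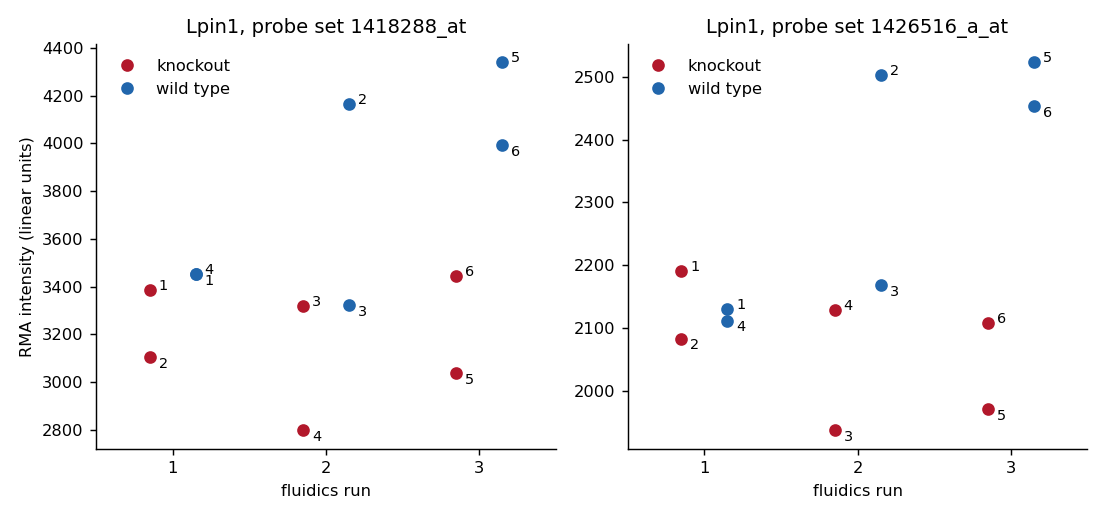
Lpin1 intensity (linear RMA units, vertical axes) at its main probe set (left) and its other probe set (right) in each of 3 fluidics runs, knockout in red and wild type in blue; the digit beside a point is the replicate number. In run 1 the genotypes lie close together, and wild type arrays 2, 5 and 6 are the highest at both probe sets.

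The Lpin1 difference was not equal in the 3 fluidics runs. Within runs 1, 2 and 3, each with 2 arrays per genotype, it was -0.091, -0.29 and -0.36 at the main probe set and 0.010, -0.20 and -0.29 at the other one. The high wild type arrays came from runs 2 (replicate 2) and 3 (replicates 5 and 6) and carry 3 different cage letters in the records. With the run as a block the difference of the main probe set stayed at -0.25 (limma, adjusted p = 0.59). Leaving out 1 array at a time gave -0.28 to -0.21, and it passed in none of these 12 fits.

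The promoter of Lpin1 is shown because this gene had the largest difference among the members, beside that of Pnpla2, a lipase gene that differed little. Each sequence is the 250 bases before the annotated start in RefSeq (build GRCm38.p6), on the strand of the gene, 5′ to 3′. Capitals mark AGGTCA, a hexamer bound by nuclear receptors such as PPARs and ERRs, TGTTCT, a hexamer bound by the glucocorticoid receptor, and GGGCGG, the GC box bound by Sp1, each searched on both strands. The arrays read transcripts and hold no measurement at these promoters.
Lpin1, chr12:16610967-16611216, minus strand: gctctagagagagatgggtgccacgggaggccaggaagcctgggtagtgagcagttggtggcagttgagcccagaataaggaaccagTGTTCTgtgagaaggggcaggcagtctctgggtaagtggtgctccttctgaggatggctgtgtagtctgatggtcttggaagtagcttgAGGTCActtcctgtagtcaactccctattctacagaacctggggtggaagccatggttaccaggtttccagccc
Pnpla2, chr7:141454938-141455187, plus strand: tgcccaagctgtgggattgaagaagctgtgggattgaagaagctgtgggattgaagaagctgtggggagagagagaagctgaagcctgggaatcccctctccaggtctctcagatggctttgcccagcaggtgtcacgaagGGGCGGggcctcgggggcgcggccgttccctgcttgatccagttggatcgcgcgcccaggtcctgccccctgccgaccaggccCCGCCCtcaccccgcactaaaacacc

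The Lpin1 window holds 1 AGGTCA, beginning 74 bases before the start, and 1 TGTTCT, beginning 163 bases before it, and no GC box. The Pnpla2 window holds 2 GC boxes, beginning 109 and 26 bases before the start, and neither of the other hexamers. Among the other members, a Gpam window also holds AGGTCA, at 196 bases, and an Mgll window TGTTCT, at 178 bases. E-boxes (CANNTG) were searched too but not marked, with 2 in the Lpin1 window and 3 in the Pnpla2 window. Of 32851 promoter windows of this length 14% hold AGGTCA, 16.1% TGTTCT and 32.7% the GC box, none of the matches overlapping another here. The Lpin1 window has 54.8% G and C and the Pnpla2 window 63.2%, against a median of 52.4% over all windows. These matches describe the letters only. Lpin1 and Pnpla2 lie on chromosomes 12 and 7, and the other measured members on chromosomes 19 (Gpam), 15 (Dgat1), 7 (Dgat2) and 6 (Mgll), so none is on chromosome 1 with Prkag3.

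The other members of the lipin family were not in the set of 7 genes but do the same chemistry. Lpin3 gave 119, 131, 128, 132, 112 and 124 units in knockout arrays 1 to 6, against 137, 133, 137, 141, 137 and 136 in wild type arrays 1 to 6. The highest knockout array was below the lowest wild type array, and such separation in either direction held for 0.38% of all tested probe sets and for 1 of the 50 measured genes in the 7 lists of the wider pathway. Its difference was -0.14 ± 0.0488 (SE), with a 95% interval from -0.24 to -0.039, and did not pass (limma, adjusted p = 0.78). The exact permutation p was 0.0022, the smallest possible. Any probe set with separated genotypes has this same p, so it only restates the separation. Within runs 1, 2 and 3 the Lpin3 difference was -0.15, -0.053 and -0.22. Its single probe set was dim, just below the median level of the array.

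Lpin2, a lipin abundant in liver, did not show a difference of this size. Its main probe set ranged from 195 to 222 units in knockout and from 206 to 217 in wild type, so the genotypes overlapped. The difference was -0.015 ± 0.0435 (SE), with a 95% interval from -0.11 to 0.077 (limma, adjusted p = 0.982), and 2 dimmer Lpin2 probe sets gave 0.082 and -0.0085.

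Gpam, the mitochondrial acyltransferase that starts glycerolipid synthesis, was also bright. Its main probe set (1419499_at) gave 2226, 2180, 2472, 2203, 2304 and 2025 units in knockout arrays 1 to 6, against 1943, 1896, 2466, 2504, 1812 and 1869 in wild type arrays 1 to 6. All 6 knockout arrays lay above the wild type median of 1919, but wild type arrays 3 and 4 were as high as the highest knockout array. The difference of 0.11 ± 0.082 (SE), with a 95% interval from -0.060 to 0.29, did not pass (limma, adjusted p = 0.909), and within runs 1, 2 and 3 it was -0.0021, 0.11 and 0.23. The wild type SD was 0.211 on the log2 scale, against 0.0949 in knockout.

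The second Gpam probe set (1425834_a_at) behaved differently across arrays. It ranged from 224 to 561 units with a median of 443 in knockout, and from 326 to 458 with a median of 420 in wild type. Knockout array 5 was the low one at 224, while the main probe set gave 2304 on that array, and the probe sets did not vary together (r = 0.0678, permutation p = 0.784; rho = 0.182, permutation p = 0.541; r = -0.134 without the 2 arrays farthest from the median). Its difference was 0.050 ± 0.162 (SE), with an interval from -0.29 to 0.39 (limma, adjusted p = 0.983), and within runs it was 0.47, 0.13 and -0.45.

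Dgat1, an acyltransferase of the endoplasmic reticulum that makes triglyceride from incoming fatty acids, lay at nearly the same level in both genotypes. It gave 336, 307, 363, 341, 337 and 316 units in knockout arrays 1 to 6, against 336, 331, 341, 341, 322 and 330 in wild type arrays 1 to 6. The wild type arrays all lay inside the knockout range. The difference was -0.0026 ± 0.0475 (SE), with a 95% interval from -0.10 to 0.098 (limma, adjusted p = 0.998), which is from -6.88% to 7.0%.

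Dgat2, an unrelated enzyme of the same reaction that is tied to newly made fatty acids, varied more. Its main probe set (1422678_at) gave 331, 465, 331, 381, 402 and 283 units in knockout arrays 1 to 6, against 368, 272, 369, 460, 366 and 297 in wild type arrays 1 to 6. Both genotypes covered about the same range, with 1 high array each, knockout 2 and wild type 4. The difference was 0.044 ± 0.122 (SE), with a 95% interval from -0.21 to 0.30 (limma, adjusted p = 0.982), and the other probe set gave 0.0017 ± 0.0913. The 2 Dgat2 probe sets varied together over the arrays (r = 0.867, permutation p = 0.0005, adjusted p = 0.0035; rho = 0.853, permutation p = 0.0012, adjusted p = 0.00479), with r = 0.855 without the 2 arrays farthest from the median and r = 0.853 within runs. Within runs the permutation p was 0.0308, the smallest these permutations gave, with an adjusted p = 0.216, so a single pair could not pass an adjustment over 7 there.

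**Figure D3:**
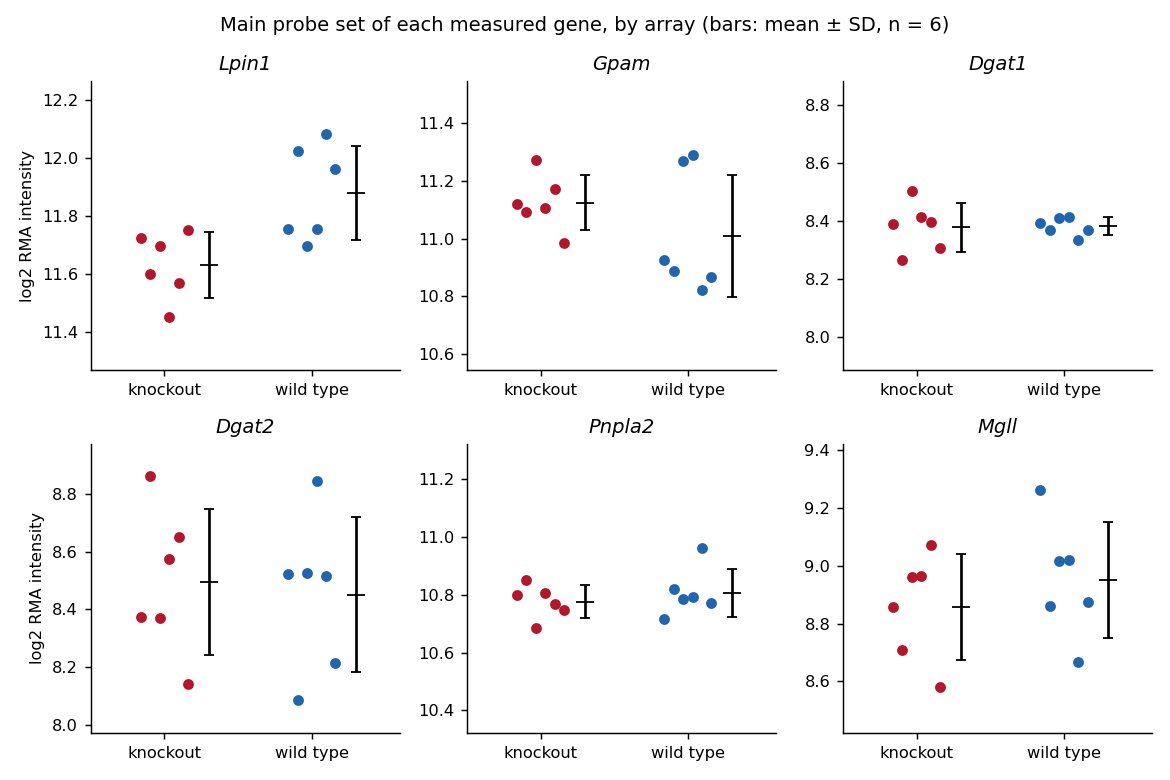
Log2 RMA intensity (vertical axes, each panel spanning 1 unit) of the main probe set of the 6 measured genes on every array, knockout in red at the left of each panel and wild type in blue at the right, with mean ± SD (n = 6). Lpin1 is the gene whose genotypes overlap least, and 2 wild type arrays stand above the other 4 for Gpam.

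Among the lipases, Pnpla2, which takes the first fatty acid from stored triglyceride, gave 1783, 1846, 1645, 1789, 1742 and 1719 units in knockout arrays 1 to 6 at its main probe set (1428143_a_at). The wild type arrays 1 to 6 gave 1681, 1808, 1766, 1772, 1993 and 1749 units. The values overlapped throughout apart from the low knockout array 3 and the high wild type array 5. The difference was -0.032 ± 0.0495 (SE), with a 95% interval from -0.14 to 0.072 (limma, adjusted p = 0.964). Without wild type array 5 it was -0.0014, and without knockout array 3 it was -0.014, in a range of -0.051 to -0.0014 over the 12 fits that left out 1 array. A dim Pnpla2 probe set gave 0.018 ± 0.0567.

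Mgll, which releases the last fatty acid and also breaks down an endocannabinoid, was read by 4 probe sets. The main one (1426785_s_at) gave 463, 418, 499, 500, 538 and 383 units in knockout arrays 1 to 6, against 614, 465, 518, 519, 407 and 469 in wild type arrays 1 to 6. The ranges overlapped, and wild type array 1 stood highest. The difference was -0.093 ± 0.0933 (SE), with a 95% interval from -0.29 to 0.10 (limma, adjusted p = 0.947), and the others gave 0.048, -0.040 and -0.045. Single arrays moved these values: without wild type array 1 the main difference was -0.030, and without wild type array 5 it was -0.15. Leaving out 1 array gave 0.014 to 0.097 for 1453836_a_at, -0.093 to 0.017 for 1450391_a_at and -0.085 to -0.0065 for 1431331_at. In run 1 the main Mgll probe set gave -0.36, and in runs 2 and 3 it gave 0.026 and 0.056. Of the other Mgll probe sets, 1450391_a_at followed the main one across arrays (r = 0.727, permutation p = 0.0141, adjusted p = 0.0495; rho = 0.839, permutation p = 0.00137, adjusted p = 0.00479; r = 0.933 without the 2 arrays farthest from the median; r = 0.665 within runs). Within runs this relation did not pass (permutation p = 0.0940, adjusted p = 0.329).

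The members were then compared with each other across the 12 arrays, using deviations of the main probe sets from their genotype means, for all 15 pairs. Gpam, at its main probe set, and Dgat1 varied together, with r = 0.586 (permutation p = 0.00222, adjusted p = 0.0333). For this pair rho was 0.769 (permutation p = 0.00073, adjusted p = 0.0109), and r was 0.68 without the 2 arrays farthest from the median. The second Gpam probe set did not vary with the main one (r = 0.0678, permutation p = 0.784), and its relation to Dgat1 was not computed. Dgat1 varied little, with an SD of 0.0847 in knockout and 0.031 in wild type on the log2 scale. Lpin1 and Mgll varied in opposite directions, with r = -0.708 (permutation p = 0.0150, adjusted p = 0.0752) and rho = -0.762 (permutation p = 0.00581, adjusted p = 0.0436). For Lpin1 and Mgll r was -0.752 without the 2 farthest arrays. Wild type arrays 2, 5 and 6, the high ones for Lpin1, were the lowest wild type arrays for Mgll, and wild type arrays 3 and 4, the high ones for Gpam, were the highest wild type arrays for Dgat1. The 4 arrays of a run are too few for a correlation of their own. After the mean of each genotype within each run was removed, r was 0.547 for Gpam and Dgat1 (permutation p = 0.0308, adjusted p = 0.463) and -0.491 for Lpin1 and Mgll (permutation p = 0.156, adjusted p = 0.469). With 2 arrays of a genotype in a run, 0.0308 was the smallest p these permutations gave, so a single pair could not pass an adjustment over 15 there. Over the 12 arrays no other pair passed after adjustment by r or by rho. All values of an array share 1 RNA sample and 1 normalization.

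**Figure D4:**
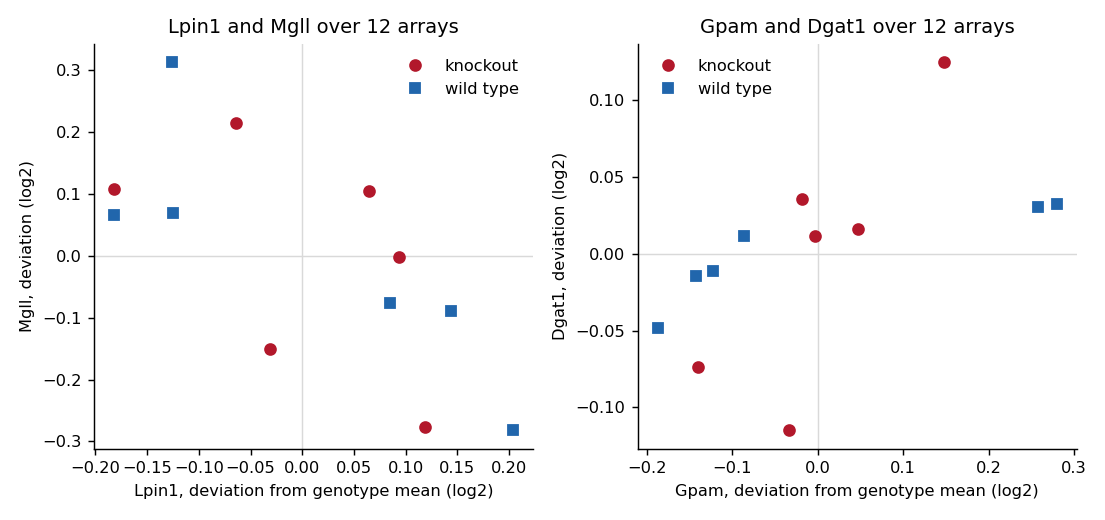
Deviation of each array from its genotype mean (log2, both axes) at the main probe sets, for Lpin1 against Mgll (left) and Gpam against Dgat1 (right). Knockout is shown as red circles and wild type as blue squares. The Lpin1 and Mgll points slope downward (r = -0.708) and the Gpam and Dgat1 points upward (r = 0.586), over 12 arrays.

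The genes most like Lpin1 were sought among 10376 probe sets that name 1 gene and lie above the median level, by the same deviations. The highest correlations were those of Chrnb1, a subunit of the muscle acetylcholine receptor (r = 0.951), Slc38a4, an amino acid transporter (r = 0.924), Stt3b, a subunit of oligosaccharyltransferase (r = 0.887), Zfp869 (r = 0.87), Nudt19, a coenzyme A diphosphatase (r = 0.863), and Abhd4, a lipase of N-acyl phospholipids (r = 0.839). The lowest were those of Dpm1 (r = -0.91), Srpr (r = -0.869) and Ndufs7 (r = -0.856). Since they were picked for this value out of many, the correlations are a description without a test. Between the genotypes Chrnb1 differed by -0.058 ± 0.0575 (SE) and Slc38a4 by -0.077 ± 0.106, and none of the 9 genes passed (limma, adjusted p of 0.906 or more).

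The wider pathway was read through 7 lists with 62 genes, of which 50 were measured, each represented by its brightest probe set on average. None passed in limma over all probe sets, with 21 higher and 29 lower in knockout and a median difference of -0.021. At an unadjusted p under 0.05, 2 genes were higher and 6 lower, where 3.35% of all tested probe sets were higher and 2.69% lower. The lists were chosen with earlier results of these data known, so these counts are a description. Over all probe sets the median difference was -0.0047.

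In the supply and acylation of glycerol-3-phosphate 6 of 11 genes were measured, 4 higher and 2 lower. Agpat3, an acyltransferase of lysophosphatidate, differed by -0.11 ± 0.0578 (SE) and Agpat5 of the same family by 0.061 ± 0.0457, and Gpd1, which makes glycerol-3-phosphate in the cytosol, by -0.021 ± 0.0481 (limma, adjusted p = 0.865, 0.912 and 0.978). In the acylation of diacylglycerol and monoacylglycerol, all 4 genes were measured, and Mogat1, a monoacylglycerol acyltransferase, gave -0.050 and Mogat2 of the same function 0.0042.

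Of 12 genes for droplet proteins and lipase partners 10 were measured, 5 higher and 5 lower. Cidec, a droplet protein of fat cells, gave 0.26 ± 0.1 (SE) and ranged from 68.1 to 102 units in knockout and from 58.6 to 84.5 in wild type. Its relative Cidea gave -0.13 ± 0.0587, Abhd5, the coactivator of PNPLA2, 0.085 ± 0.0518, and Plin5, a droplet coat protein of oxidative tissue, -0.15 ± 0.0947 (limma, adjusted p = 0.783, 0.817, 0.891 and 0.896 for the 4 genes). The probe sets of Cidec and Cidea were dim, at percentiles 30.4 and 33.3 of the level on the array. Of the 8 lipases, all were measured, 3 higher and 5 lower, and none had an unadjusted p under 0.05. Abhd6, another monoacylglycerol lipase, gave 0.056 ± 0.0837 and Pnpla3, a relative of PNPLA2, 0.039 ± 0.0729 (limma, adjusted p = 0.964 and 0.973).

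Phosphatidate and diacylglycerol also feed phospholipids and signalling. Of 14 genes for these outlets 11 were measured, 4 higher and 7 lower. Dgkz, a kinase that turns diacylglycerol back into phosphatidate, gave 0.13 ± 0.0548 and Dgke of the same family 0.092 ± 0.0488 (limma, adjusted p = 0.801 and 0.865), with 0.034 and 0.024 at further probe sets. Plpp1, a membrane phosphatase of lipid phosphates, gave -0.089 ± 0.0589 and Cds2, which makes CDP-diacylglycerol, -0.070 ± 0.0570 (limma, adjusted p = 0.898 and 0.920). The other Plpp1 probe sets gave -0.21 and 0.0077, and those of Cds2 lay on both sides of 0, from -0.13 to 0.077.

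In the list of fatty acid oxidation genes known as targets of lipin 1 or PGC-1alpha, 8 of 10 were measured, 3 higher and 5 lower, with a median difference of -0.11. Ppargc1a, which encodes PGC-1alpha, gave -0.29 ± 0.0758 (SE), Hadhb of the trifunctional protein -0.16 ± 0.0563, the very long chain dehydrogenase Acadvl -0.15 ± 0.0657 and its long chain relative Acadl -0.13 ± 0.0834 (limma, adjusted p = 0.564, 0.781, 0.816 and 0.896). At further probe sets, 4 more for Ppargc1a were all lower, at -0.24 to -0.041, and 1 more for Acadl gave -0.0655. For Hadhb 1 more gave -0.00052, with almost no difference. The 3 genes of the list that were higher in knockout were Ppara (0.038), Pdk4 (0.017) and Hadha (0.011). These genes were set beside Lpin1 for their known roles, and no link between them was measured.

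**Figure D5:**
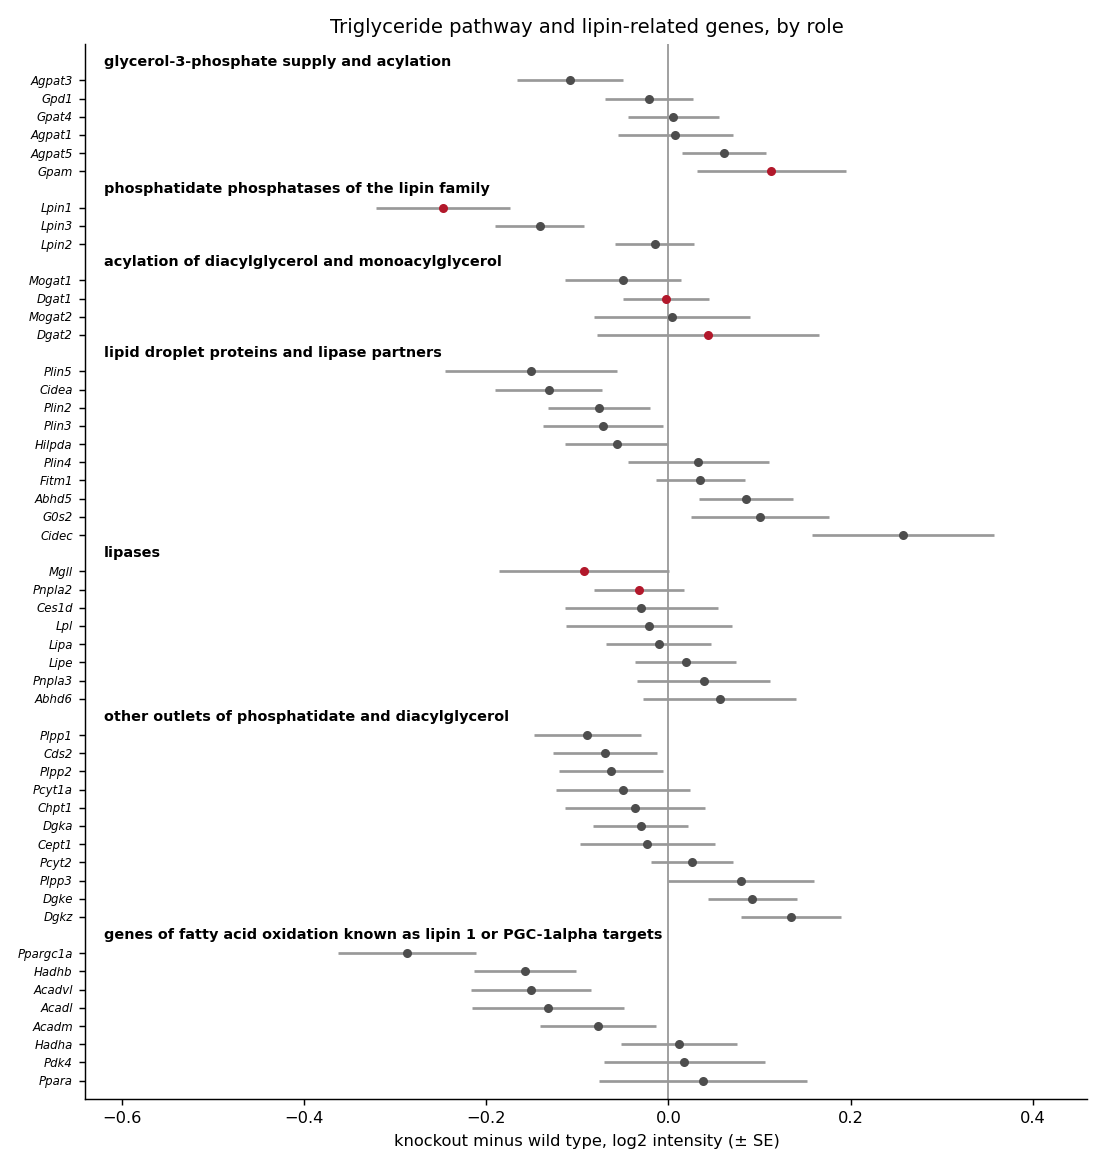
Knockout minus wild type on the log2 scale (horizontal axis, ± SE, 6 against 6 arrays) for the 50 measured genes of the pathway, 1 main probe set each, grouped by role; red points are genes of the set of 7. Ppargc1a (-0.29), Lpin1 (-0.25) and the dim Cidec (0.26) lie farthest from 0, and no gene passed the adjusted threshold.

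Fat cells and slow fibres in the muscle piece also express these genes. The mean level of 7 of 9 adipocyte markers, each centred on its average, ran from -0.055 to 0.22 in knockout and from -0.27 to 0.13 in wild type, a difference of 0.13 (exact permutation p = 0.119, adjusted over 5 marker lists p = 0.463). Their summed intensity ranged from 2918 to 3470 in knockout and from 2711 to 3327 in wild type. Adipoq, which encodes adiponectin and defines fat cells, ranged from 420 to 726 units in knockout and from 240 to 618 in wild type, and so was well detected. Its difference was 0.39 ± 0.186 (SE) and did not pass (limma, adjusted p = 0.818). Cidec, Lep and Pparg of the same list were dim, at level percentiles 30.4, 27 and 33.3. Fabp4, the brightest and so the largest part of the sum, ranged from 1686 to 2057 units in knockout and from 1694 to 2057 in wild type. Of the 7 markers 6 were higher and 1 lower in knockout. Within runs 1, 2 and 3, each with 2 arrays per genotype, the adipocyte level differed by -0.054, 0.25 and 0.21. The level of all 9 slow fibre markers ran from -0.63 to 0.91 in knockout and from -0.57 to 0.92 in wild type, with a difference of -0.33 (exact permutation p = 0.342), and -0.25, 0.40 and -1.15 within runs. Their summed intensity ranged from 2571 to 7421 in knockout and from 2632 to 7406 in wild type. The fast fibre, endothelial and macrophage lists differed by 0.014, -0.074 and 0.020 (exact permutation p = 0.37, 0.197 and 0.682).

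Across arrays, 12 relations of the 6 genes to the adipocyte and slow fibre levels were computed, and none passed after adjustment. The strongest were those of Dgat2, with r = 0.631 (permutation p = 0.0393, adjusted p = 0.236) and rho = 0.594 (permutation p = 0.0577, adjusted p = 0.693) to the adipocyte level, and r = 0.649 (permutation p = 0.035, adjusted p = 0.236) and rho = 0.483 (permutation p = 0.14, adjusted p = 0.842) to the slow fibre level. Without the 2 arrays farthest from the median these were r = 0.439 and r = 0.246. Within runs they were r = 0.512 and r = 0.681. Pnpla2 had r = 0.213 (permutation p = 0.610) and rho = 0.315 (permutation p = 0.355) to the adipocyte level over the 12 arrays, r = 0.236 without the 2 farthest, and r = 0.947 within runs (permutation p = 0.0308, adjusted p = 0.370). Lpin1 had r = -0.426 (permutation p = 0.228) and rho = -0.308 (permutation p = 0.389) to the adipocyte level, r = -0.292 without the 2 farthest arrays and -0.170 within runs, and r = -0.0476 (permutation p = 0.885) and rho = -0.0559 (permutation p = 0.878) to the slow fibre level. The part of these cell types in the Lpin1 difference was not tested.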

How the data were processed

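RNA from 12 muscle samples was hybridised to MOE430A arrays. The authors made intensity values with RMA and deposited them on a linear scale, per the submitters' processing notes and the values, which ran from 7.47 to 21828. RMA's version and a genome build are not given in the sources used here. Of 22690 probe sets, 64 controls were left out. Log2 was taken of the deposited intensities. Genes were named by the platform annotation, using probe sets with 1 gene (20380 probe sets, 12393 genes), and the brightest one on average stood for a gene with several.

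Knockout was compared with wild type in limma 3.58.1 under R 4.3.3 (lmFit and eBayes, two-sided, no term but genotype, Benjamini-Hochberg over 22626 probe sets). The fit was checked on simulated data. How often it recovered simulated differences as small as that of Lpin1 is not reported here. Exact permutation tests, two-sided, and correlations with 100000 permutations within genotype used Python 3.11.15 with SciPy 1.17.1. No paired fit was the main one: same-numbered arrays deviated together (r over 0.1) in 2 of 6 pairs.

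Named were all members, up to 4 genes per pathway list by smallest p, and the 6 genes most and 3 least like Lpin1. Of the fatty acid oxidation list, the genes higher in knockout were named too. Members and lists were chosen with earlier results of these data known. The alternatives were a replicate, run, cage or module block, median centring, quantile normalization, a level filter, a trended robust prior, array weights, the median over markers, a shorter adipocyte list and leaving out each array. RefSeq (GRCm38.p6) promoters were present for 5 of the 7 genes.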

Additional observations from a re-analysis of the deposited data

Results flagged for a closer look

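For the Gpam probe set 1425834_a_at, knockout array 5 lay far below the other 5 knockout arrays. Its log2 intensity was 7.81, or 224 intensity units, and the nearest knockout array was at 8.65, or 401 units. The gap to that array was 0.633 of the range of the knockout arrays, above Dixon's 95% critical value for 6 samples. Of 36 groups of 6 arrays looked at, this was the 1 that passed, and chance gives about 1 in 20. The main Gpam probe set on the same array, at 2304 units, lay within the knockout range. Without this array the difference of 1425834_a_at was 0.23, against 0.050 with it, and it did not pass in either fit.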

How the results depend on the processing

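The count of member probe sets past the threshold was 0 in the fit as reported and in each of 9 other fits and 12 fits that left out 1 array, while 2 had an unadjusted p under 0.05 in the fit as reported. The main Lpin1 probe set kept its sign in all of them, from -0.28 to -0.21 when 1 array was left out, and gave -0.091 in fluidics run 1 alone; the cause was not tested. With the replicate number as a block its difference stayed at -0.25 (limma, adjusted p = 0.526). Same-numbered arrays carry the same cage letter in the records, but no knockout array correlated best with the wild type array of its number. Whether the replicate numbers pair the mice is not given in the sources used here. The block changed no call of a member. Signs turned for differences near 0. Dgat1 gave 0.0091 after median centring, 0.0023 with array weights and 0.015 with the module block. The main Dgat2 probe set gave -0.012 with array weights, and the other one -0.0060 after quantile normalization and -0.031 with array weights. With the module block the dim Pnpla2 probe set gave -0.012 and Mgll 1450391_a_at 0.011. Leaving out 1 array gave -0.037 to 0.23 for Gpam 1425834_a_at, -0.028 to 0.020 for Dgat1, -0.029 to 0.12 and -0.071 to 0.047 for Dgat2, -0.013 to 0.047 for the dim Pnpla2 probe set and -0.093 to 0.017 for Mgll 1450391_a_at. Within runs, the relation to the adipocyte level turned to r = -0.239 for Gpam and r = -0.192 for Mgll, and with the shorter list to r = 0.027 for Dgat1. With the mean of each run removed, the relations between probe sets of Dgat2 and of Mgll no longer passed (adjusted p = 0.216 and 0.329). None of the member differences passed the adjusted threshold in any fit. The 2 dimmest member probe sets lay below the median level and could not be fitted in the filter on level.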
